A study of Saccharomyces cerevisiae with 12 samples.

Results

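The genes described here are 10 genes of the pheromone response of budding yeast, AGA1, FUS1, FUS3, FIG1, FIG2, STE12, FAR1, GPA1, SST2 and KAR4, out of 5574 genes named by a probe. They were taken by name as parts of the haploid signalling pathway and genes it induces in both mating types. Earlier results of these data were known when they were chosen, and every probe annotated to one of them was used. All 10 were on the arrays, with 14 probes in the table of 8 arrays and 10 probes in each of the other tables.

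Haploid yeast cells of mating type a or alpha secrete a pheromone that a receptor on the opposite type binds. The receptor acts on a heterotrimeric G protein, whose freed beta and gamma subunits switch on a cascade of protein kinases that ends in the kinases Fus3 and Kss1. These release the transcription factor Ste12 from its inhibitors, and Ste12 binds pheromone response elements upstream of genes for agglutination, cell cycle arrest, cell fusion and nuclear fusion. Several of these genes are also read at a basal level in cells that have met no pheromone, and many are off in a/alpha diploids.

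The data are 12 spotted arrays with 2 channels, each with RNA of a deletion mutant in channel 1 and RNA of the wild-type strain FY2 in channel 2. The mutants were FY31, which lacks SNF2, the ATPase of the chromatin-remodelling complex Snf/Swi, and YPS1, which lacks SWI1, another subunit of it. Both grew either in minimal medium or in YPD, a rich medium, with 3 arrays in each of the 4 groups, called snf2 minimal, swi1 minimal, snf2 rich and swi1 rich below. Mating type, ploidy, further alleles and any pheromone treatment are not given in the sources used here, nor whether separate cultures stand behind the arrays, so the p-values cover array-to-array spread alone, which may be technical. The tests use replicates 2 and 3 (n = 2 in a group), whose 8 arrays share a platform; the replicate 1 arrays were of other platforms, and their values are set beside the tests.

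All values are log2 ratios of mutant over wild type, centred on the median gene of the array. This direction is likely but not stated: the wild type is channel 2 and comes first in the labels, and ScanAlyze, which read the spots, writes channel 2 over channel 1, so the deposited sign was turned. With the opposite reading every "fell" becomes "rose". The deleted genes did not settle it. SNF2 read between 0.65 and 1.00 on the 4 snf2 arrays of replicates 2 and 3, which is the opposite of a loss, and SWI1 read between -0.83 and 0.57 on the 4 swi1 arrays. The sources used here do not say what those probes cover relative to each deletion. Between 5299 and 8192 of 8832 probes were measured on the 8 arrays, fewest on snf2 rich replicate 3, and the snf2 rich replicate 1 array had the widest spread (SD 1.40 against 0.60 to 0.83 on the others). All 66 pairs of arrays correlated positively across genes (r = 0.19 to 0.86).

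The 10 members fell in both mutants and both media. As they were chosen with earlier results of these data known, their counts do not speak for the pathway as a whole. In snf2 minimal 10 of 10 members were called lower by limma at an adjusted p under 0.05, against 16.4% of all genes tested, with a median of -1.46 against 0.01 over all genes. In swi1 minimal 9 of 10 were called lower, against 14.8%, with a median of -1.30 against 0.00. In snf2 rich 10 of 10 were, against 22.2%, with a median of -1.07 against 0.01, and in swi1 rich 9 of 9, against 21.7%, with a median of -1.16 against 0.00. FIG1 had no value on swi1 rich replicate 3 and was not tested there. No member was called higher, against 12.8%, 13.7%, 19.5% and 19.1% of all genes in the same order of groups. In bulk RNA, fewer cells that express a gene and less RNA per cell cannot be told apart. The mutant was in channel 1 of every array. A bias of a gene between channels would therefore recur in all 4 groups, and it cannot be told apart from a mutant effect.

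Sizes differed widely among the members, from 11.02-fold lower for AGA1 to 1.34-fold lower for STE12 in snf2 minimal. In both minimal groups 9 of 10 members lay among the lowest 5% of all genes tested, and in the rich groups 6 of 10 (snf2) and 6 of 9 (swi1) did. Of the 9 members tested in all 4 groups, 8 were called lower in each, and STE12 was the exception, in swi1 minimal. No member's group mean changed sign under any of the alternative settings tried.

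**Figure D1:**
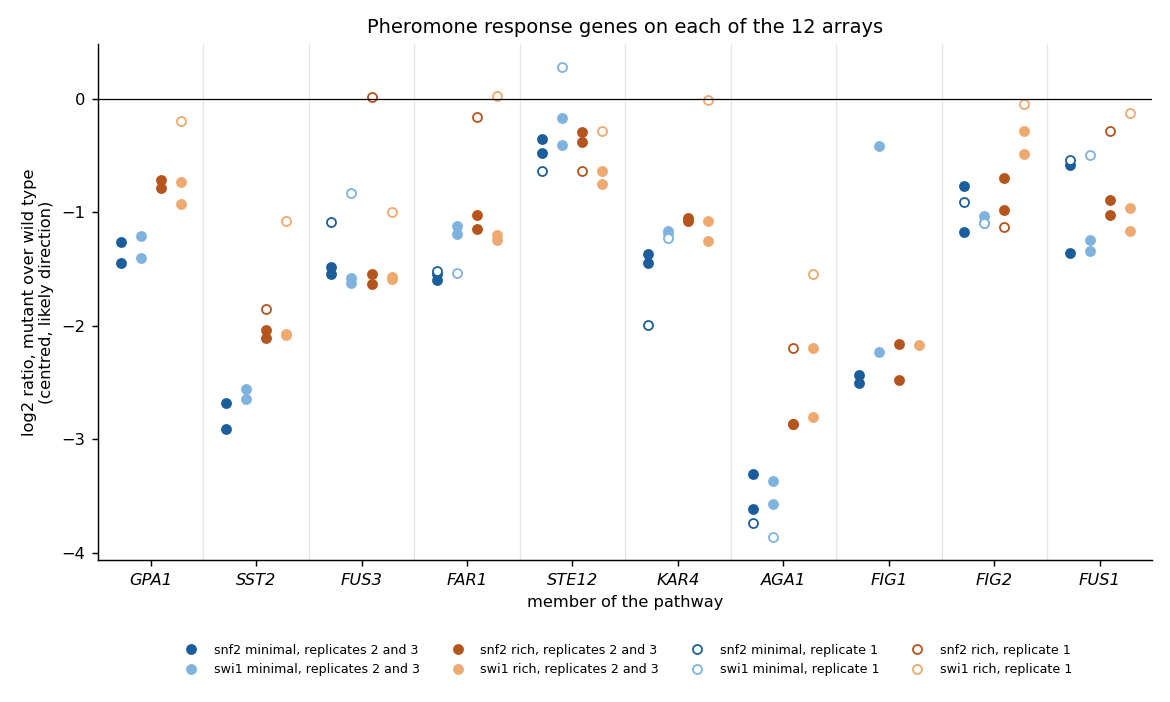
Log2 ratio of mutant over wild type (y axis, centred on the median gene, likely direction) for each member (x axis) on every array; colours mark the group, filled points replicates 2 and 3, and open points replicate 1. AGA1 has the lowest points (down to -3.86) and STE12 lies close to 0. Open points of rich groups lie near 0 for FAR1 in both mutants, FUS3 in snf2, and KAR4, FIG2, FUS1 and GPA1 in swi1.

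GPA1 (YHR005C) encodes the alpha subunit of the G protein, which holds the beta and gamma subunits back until the receptor is bound. It read -1.44 and -1.26 on replicates 2 and 3 of snf2 minimal and -1.21 and -1.40 on those of swi1 minimal. In rich medium it read -0.72 and -0.79 in snf2 and -0.93 and -0.73 in swi1. Every minimal array lay below every rich array. In minimal medium the means were -1.35 ± 0.10 (limma's moderated SE, adjusted p = 0.000118) for snf2 and -1.30 ± 0.10 (adjusted p = 0.000157) for swi1. In rich medium they were -0.75 ± 0.10 (adjusted p = 0.00124) and -0.83 ± 0.10 (adjusted p = 0.00102). On replicate 1 it was measured in swi1 rich alone, at -0.19.

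SST2 (YLR452C) encodes the GTPase-activating protein that switches Gpa1 off again and so desensitises the cell to pheromone. Its ratios were -2.68 and -2.91 (snf2) and -2.64 and -2.56 (swi1) in minimal medium, and -2.04 and -2.11 (snf2) and -2.07 and -2.08 (swi1) in rich medium. The arrays of each medium lay close together, and those of the 2 media did not overlap. The means were -2.79 ± 0.09 (adjusted p = 3.92e-06) and -2.60 ± 0.09 (adjusted p = 6.40e-06) in minimal medium, which is 6.93-fold and 6.06-fold lower, and -2.07 ± 0.10 (adjusted p = 9.67e-06) and -2.08 ± 0.09 (adjusted p = 1.68e-05) in rich medium, in the order snf2, swi1. Among all genes tested in snf2 minimal SST2 ranked 20 of 5307 from the lowest. On replicate 1 it read -1.85 in snf2 rich and -1.08 in swi1 rich.

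FUS3 (YBL016W) encodes the mitogen-activated protein kinase at the end of the cascade. Its values were the most even of all members, at -1.48 and -1.54 (snf2) and -1.62 and -1.58 (swi1) in minimal medium, and -1.54 and -1.63 (snf2) and -1.59 and -1.56 (swi1) in rich medium. All 8 arrays thus fell within a narrow range whatever the mutant or medium, and the means were -1.51, -1.60, -1.58 and -1.58, each ± 0.08 or 0.09, with adjusted p from 1.60e-05 to 2.80e-05. Replicate 1 read -1.08 in snf2 minimal, -0.83 in swi1 minimal and -0.99 in swi1 rich, but 0.02 in snf2 rich. KSS1, which encodes the related kinase, was called lower in 1 of 4 groups, at -0.53 ± 0.11 in snf2 rich.

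FAR1 (YJL157C) encodes the cyclin-dependent kinase inhibitor that arrests the cell cycle and guides growth toward a mate. It read -1.59 and -1.54 (snf2) and -1.12 and -1.19 (swi1) in minimal medium, and -1.14 and -1.02 (snf2) and -1.24 and -1.20 (swi1) in rich medium. Of these 8 arrays the snf2 minimal ones lay lowest. Its means were -1.57 ± 0.08 (adjusted p = 2.46e-05), -1.16 ± 0.08 (adjusted p = 0.000115), -1.08 ± 0.09 (adjusted p = 0.000137) and -1.22 ± 0.08 (adjusted p = 9.51e-05). Replicate 1 read -1.51 in snf2 minimal and -1.53 in swi1 minimal, where it lay below both other arrays and level with snf2. In rich medium it stood near 0, at -0.16 and 0.02.

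STE12 (YHR084W), the gene of the transcription factor itself, had the mean nearest to 0 of all members in every group but swi1 rich, where that of FIG2 was nearer. It read -0.48 and -0.36 (snf2) and -0.41 and -0.17 (swi1) in minimal medium, and -0.38 and -0.295 (snf2) and -0.75 and -0.64 (swi1) in rich medium, so that all 8 arrays were below 0 and the swi1 rich arrays lay lowest. The mean in swi1 rich was -0.69 ± 0.10 (adjusted p = 0.00179). In snf2 minimal and snf2 rich it was -0.42 ± 0.10 (adjusted p = 0.0171) and -0.34 ± 0.10 (adjusted p = 0.0311), and in swi1 minimal -0.29 ± 0.10 did not pass (adjusted p = 0.0633). Without snf2 minimal replicate 2 or 3 the snf2 minimal call was lost (adjusted p = 0.156 and 0.0827), and without snf2 rich replicate 2 or 3 that in snf2 rich was (adjusted p = 0.1899 and 0.110). The snf2 rich call was also lost without centring, at -0.23 (adjusted p = 0.0977). Replicate 1 read -0.63, 0.28, -0.63 and -0.28 in the order snf2 minimal, swi1 minimal, snf2 rich and swi1 rich.

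KAR4 (YCL055W) encodes a factor that works with Ste12 at genes of nuclear fusion. The mean of its measured spots gave -1.37 and -1.44 (snf2) and -1.19 and -1.17 (swi1) in minimal medium, and -1.05 and -1.07 (snf2) and -1.07 and -1.25 (swi1) in rich medium. All 8 arrays lay below -1, and its 2 spots differed by at most 0.34 on the 7 arrays that measured both; the -1.07 of snf2 rich replicate 3 rests on 1 spot. The means were -1.41 ± 0.09 (adjusted p = 5.07e-05), -1.18 ± 0.09 (adjusted p = 0.000128), -1.06 ± 0.09 (adjusted p = 0.000168) and -1.16 ± 0.09 (adjusted p = 0.000142). Replicate 1 read -1.99 and -1.23 in minimal medium (snf2, swi1) and -0.01 in swi1 rich.

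**Figure D2:**
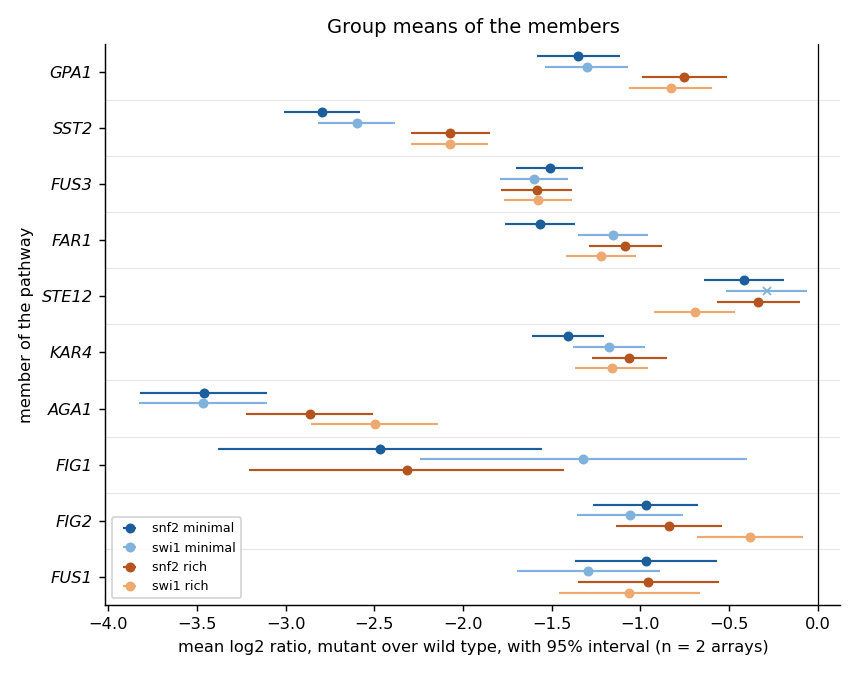
Mean log2 ratio (x axis, mutant over wild type, likely direction) with its 95% interval from limma (n = 2 arrays per group) for each member (y axis) in the 4 groups; crosses mark an adjusted p of 0.05 or more. All intervals lie below 0, FIG1 has the widest ones and STE12 in swi1 minimal is the single cross.

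AGA1 (YNR044W) encodes the cell wall anchor of a-agglutinin, which holds mating cells together. It had the lowest values of all members on each of the 8 arrays, at -3.62 and -3.31 (snf2) and -3.57 and -3.37 (swi1) in minimal medium, and -2.87 and -2.86 (snf2) and -2.80 and -2.19 (swi1) in rich medium. Minimal arrays lay below all rich arrays. The mean was -3.46 ± 0.15 (adjusted p = 1.08e-05), or 11.02-fold lower, in snf2 minimal, where it ranked 14 of 5307 genes from the lowest. It was -3.47 ± 0.15 (adjusted p = 1.30e-05) in swi1 minimal. In rich medium the means were -2.86 ± 0.15 (adjusted p = 1.53e-05), 7.28-fold lower, and -2.50 ± 0.15 (adjusted p = 5.81e-05), 5.65-fold lower, for snf2 and swi1. Replicate 1 gave -3.74 and -3.86 in minimal medium and -2.20 and -1.55 in rich medium.

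FIG1 (YBR040W) encodes a membrane protein that takes part in calcium uptake and fusion during mating. It read -2.50 and -2.44 in snf2 minimal and -2.48 and -2.16 in snf2 rich. On swi1 arrays it read -2.23 and -0.41 in minimal medium and -2.17 on the single rich array that measured it. Thus 6 of the 7 values lay below -2 and swi1 minimal replicate 3 stood apart. The snf2 means were -2.47 ± 0.38 (adjusted p = 0.00479) and -2.32 ± 0.37 (adjusted p = 0.00351) in minimal and rich medium. The swi1 minimal mean was -1.32 ± 0.38 (adjusted p = 0.0453), and it did not pass without swi1 minimal replicate 2, at -0.41 (adjusted p = 0.165). It also did not pass without either snf2 minimal array (adjusted p = 0.0772) or either snf2 rich array (adjusted p = 0.0600), which enter through the shared spread. In snf2 minimal the call was lost without replicate 2 or 3 (adjusted p = 0.0563 and 0.0598). FIG1 had no value on any replicate 1 array.

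FIG2 (YCR089W) encodes a cell wall adhesin made during mating. The mean of its measured spots was -1.18 and -0.77 (snf2) and -1.09 and -1.03 (swi1) in minimal medium, and -0.70 and -0.98 (snf2) and -0.48 and -0.28 (swi1) in rich medium. Its swi1 rich arrays were nearest to 0, and -0.28 on replicate 3 of that group rests on 1 spot, against 2 on the other 7 arrays. Means were -0.97 ± 0.13 (adjusted p = 0.00182), -1.06 ± 0.13 (adjusted p = 0.00144), -0.84 ± 0.13 (adjusted p = 0.00202) and -0.38 ± 0.13 (adjusted p = 0.0470). The last did not pass with a replicate block (adjusted p = 0.0621), without centring, at -0.29 (adjusted p = 0.106), or without swi1 rich replicate 2 or 3 (adjusted p = 0.290 and 0.113), nor without either swi1 minimal array (adjusted p = 0.0692). Replicate 1 read -0.91, -1.10, -1.13 and -0.05.

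FUS1 (YCL027W) encodes a membrane protein needed for cell fusion and is widely used as a reporter of the pathway. The mean of its measured spots, 3 on 7 arrays and 2 on snf2 rich replicate 3, gave -0.58 and -1.36 (snf2) and -1.34 and -1.25 (swi1) in minimal medium, and -0.89 and -1.02 (snf2) and -1.16 and -0.96 (swi1) in rich medium. The first value stands apart from the other 7, and its spots disagreed: on snf2 minimal replicate 2 they ranged from -1.76 to 0.05. On the other arrays the spots of FUS1 differed by 0.06 to 0.92. The means were -0.97 ± 0.17 (adjusted p = 0.00570), -1.29 ± 0.17 (adjusted p = 0.00221), -0.96 ± 0.17 (adjusted p = 0.00382) and -1.06 ± 0.17 (adjusted p = 0.00301). With the median of the spots the snf2 minimal value was -0.74 and did not pass (adjusted p = 0.0882). Without its first spot, an alternative chosen after seeing the data, it was -0.72 (adjusted p = 0.0996). Without snf2 rich replicate 3 the snf2 rich call was lost (adjusted p = 0.0510). Replicate 1 read -0.54 and -0.50 in minimal and -0.28 and -0.13 in rich medium.

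**Figure D3:**
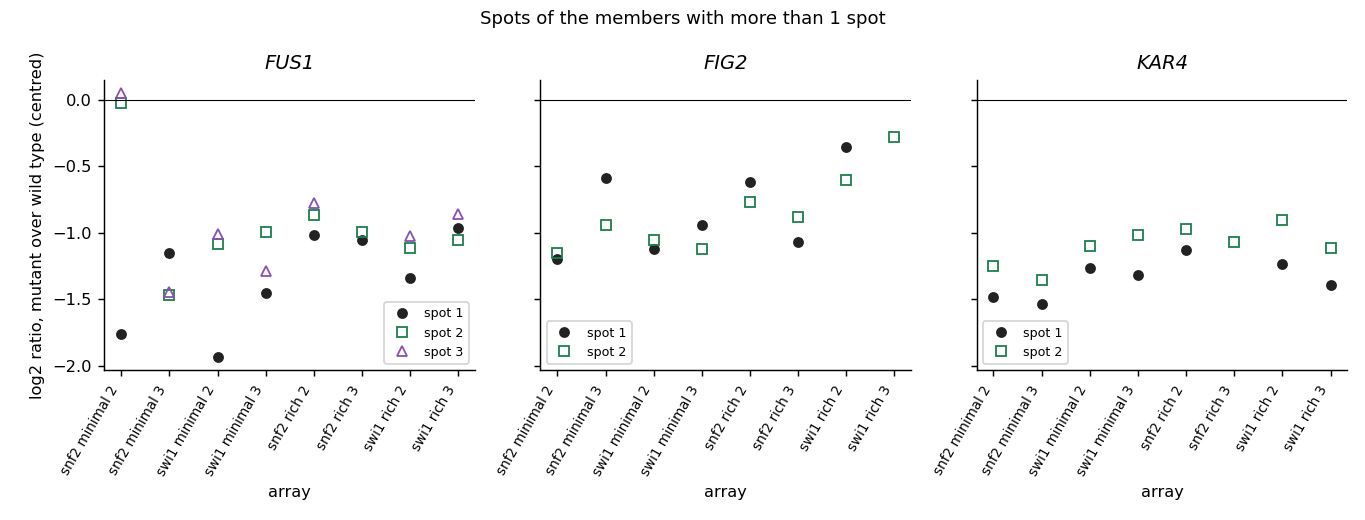
Centred log2 ratio (y axis) of each single spot of FUS1, FIG2 and KAR4, the members with more than 1 spot, on the 8 arrays of the shared platform (x axis). The lowest and highest FUS1 spots on snf2 minimal replicate 2 lie at -1.76 and 0.05, while the spots of FIG2 and KAR4 stay within 0.36 of each other.

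On the replicate 1 arrays 7 of 7 measured members were below 0 for snf2 and 6 of 7 for swi1 in minimal medium. In rich medium 6 of 7 and 8 of 9 were, where centring puts 49.93% to 49.97% of all genes below 0. Their medians were -1.08, -1.10, -0.63 and -0.19. The last stood well above the -1.16 of replicates 2 and 3 of swi1 rich. With all 12 arrays in the fit and platform as a random block, 7 of 10 members were called in each minimal group, where 6.76% (snf2) and 6.54% (swi1) of all genes were called in either direction. In rich medium it was 5 of 10 for snf2 (AGA1, SST2, FUS3, FAR1 and FIG2), against 15.5%, and 3 of 9 for swi1 (AGA1, SST2 and FUS3), against 8.52%.

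The 2 mutants were compared directly within each medium. No member differed by an adjusted p under 0.05 in minimal medium, where 0 of 5123 genes (0%) did, or in rich medium, where 1 of 3397 (0.0294%) did. At an unadjusted p under 0.05, limma gave 280 genes and 1 member in minimal and 226 genes and 2 members in rich medium. AGA1 differed by 0.00 (95% interval -0.50 to 0.51) between snf2 and swi1 in minimal medium, and FUS3 by 0.09 (-0.18 to 0.36) there and by -0.01 (-0.29 to 0.28) in rich medium. SST2 differed by -0.19 (-0.50 to 0.11) and 0.00 (-0.31 to 0.32). The largest member difference was that of FIG1 in minimal medium, -1.15 (-2.43 to 0.14), where swi1 minimal replicate 3 stood apart. FAR1 was the member with an unadjusted p under 0.05 in minimal medium, at -0.41 (-0.69 to -0.13, adjusted p = 0.837). FIG2, at -0.45 (-0.88 to -0.03), and STE12, at 0.36 (0.03 to 0.69), were those in rich medium, both with adjusted p = 0.741. An interval that spans 0 does not show that the mutants act alike.

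The 2 media were compared within each mutant. In both, 1 member passed, and neither call held under several alternatives, while with a common spread 5 of 10 (snf2) and 4 of 9 (swi1) passed. At an unadjusted p under 0.05, limma gave 753 of 3559 genes and 5 of 10 members for snf2. For swi1 it gave 1247 of 4890 genes and 5 of 9 members. Here negative differences mean a lower ratio in minimal than in rich medium. On snf2 arrays 9 of 10 members had a negative difference, with a median of -0.25 against 0.02 over all genes, and 1 was called, SST2, against 5% of all genes tested. SST2 differed by -0.72 ± 0.14 (adjusted p = 0.0243). GPA1 (-0.60 ± 0.15, adjusted p = 0.0650), AGA1 (-0.60 ± 0.22, adjusted p = 0.175) and FAR1 (-0.48 ± 0.13, adjusted p = 0.0801) did not pass. FUS3 differed by 0.07 (95% interval -0.21 to 0.36).

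On swi1 arrays 7 of 9 members had a negative difference, with a median of -0.23 against 0.05 over all genes. AGA1 was called, against 6.26% of all genes tested, at -0.97 ± 0.22 (adjusted p = 0.0453). SST2 (-0.52 ± 0.13, adjusted p = 0.0607), GPA1 (-0.47 ± 0.14, adjusted p = 0.0960) and FIG2 (-0.68 ± 0.18, adjusted p = 0.0718) did not pass. STE12 ran the other way, at 0.41 ± 0.14 (adjusted p = 0.127), and KAR4 (-0.01, -0.30 to 0.28) and FUS3 (-0.03, -0.30 to 0.25) differed little. Both calls were lost under quantile normalisation, with SST2 at -0.42 (adjusted p = 0.153) and AGA1 at -0.21 (adjusted p = 0.711). The SST2 call was also lost without any 1 of the 4 snf2 arrays (adjusted p = 0.0542 to 0.113). That of AGA1 was lost without any 1 of 7 arrays (adjusted p = 0.0610 to 0.151) and kept without swi1 rich replicate 2 (adjusted p = 0.0139).

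**Figure D4:**
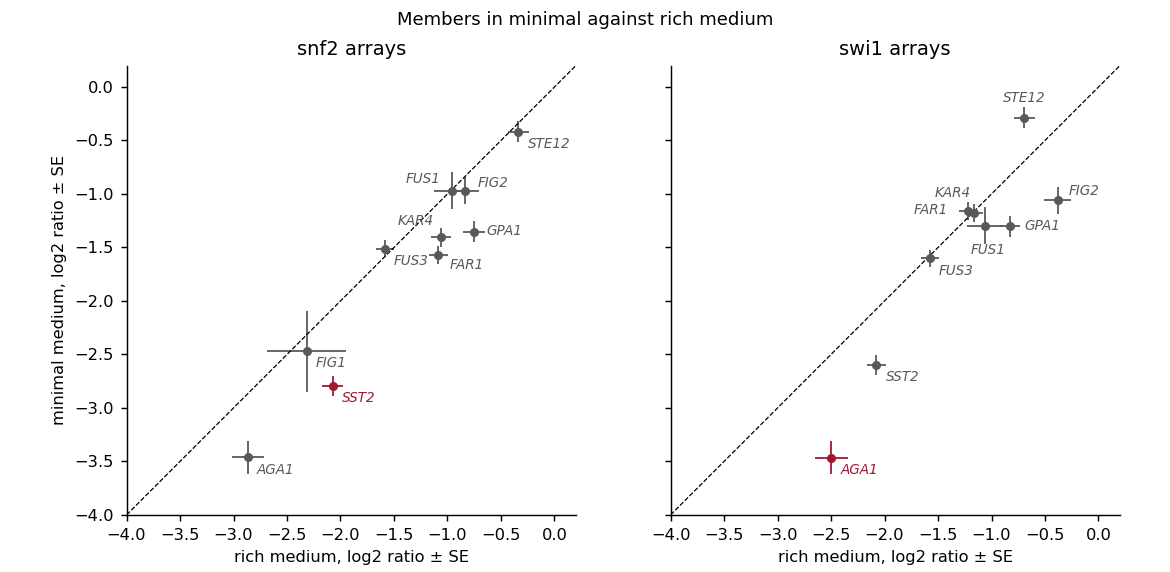
Mean log2 ratio of each member in rich medium (x axis) against minimal medium (y axis), with limma's SE as bars, for snf2 (left) and swi1 (right); the dashed line marks equal ratios and red marks a difference with an adjusted p under 0.05. SST2 on snf2 arrays (-2.07 and -2.79) and AGA1 on swi1 arrays (-2.50 and -3.47) are red, and FUS3 lies on the line in both.

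The rest of the pathway did not follow as a whole. Counts in this list and those that follow stand beside the shares of all genes tested. In the order snf2 minimal, swi1 minimal, snf2 rich and swi1 rich, 16.4%, 14.8%, 22.2% and 21.7% of all genes were called lower. In the same order 12.8%, 13.7%, 19.5% and 19.1% were called higher. Of 18 other signalling genes, limma called 4 of 18 lower and 0 higher in snf2 minimal. In swi1 minimal it called 5 and 2 of 17, in snf2 rich 3 and 1 of 13, and in swi1 rich 5 and 2 of 17, with medians of -0.04, -0.01, -0.06 and -0.25. STE3, the a-factor receptor made by alpha cells, fell furthest, to -2.79 ± 0.10 and -2.39 ± 0.10 in minimal and -1.66 ± 0.11 and -1.71 ± 0.10 in rich medium (snf2, swi1, adjusted p at most 5.20e-05). TEC1, the partner of Ste12 at filamentation genes, stood at -1.31 ± 0.11 and -1.28 ± 0.11 in minimal medium and -1.65 ± 0.11 in swi1 rich, with adjusted p at most 0.000707, and was not tested in snf2 rich. Its replicate 1 value in swi1 rich was 0.04. STE4, the G protein beta subunit, was called in both groups where it was tested, at -0.70 ± 0.09 in snf2 minimal and -0.37 ± 0.09 in swi1 rich. MCM1, a transcription factor that acts with Ste12 and at mating-type specific genes, was called lower in swi1 minimal (-0.42 ± 0.10) and swi1 rich (-0.56 ± 0.10). In snf2 minimal MCM1 stood at -0.27 ± 0.10 and did not pass (adjusted p = 0.0950). It was not tested in snf2 rich, where replicates 1 and 2 read -0.81 and -0.83. The kinase genes STE11 and STE7, the adaptor gene STE50 and the Ste12 inhibitor genes DIG1 and DIG2 were called in no group where they were tested.

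Of the 20 other pheromone-induced genes, limma called 6 lower and 2 higher of 19 in snf2 minimal. For swi1 minimal these counts were 5 and 2 of 17, for snf2 rich 4 and 2 of 11 and for swi1 rich 6 and 2 of 16, with medians from -0.07 to 0.04. The part called lower was larger in each group than the 16.4%, 14.8%, 22.2% and 21.7% of all genes. FUS2 and PRM4 were called lower in all 4 groups and PRM2 in the 3 where it was tested, while MID2 was called higher in all 4. On replicate 1 FUS2 read -1.205 in snf2 minimal but 1.38 in swi1 minimal. PRM1, a membrane protein of cell fusion, was lower in all 4 groups, at -2.11 ± 0.10 and -1.92 ± 0.10 in minimal and -1.80 ± 0.11 and -1.80 ± 0.10 in rich medium (adjusted p at most 4.36e-05). Replicate 1 went against it in rich medium, where PRM1 read 2.30 in snf2 and 1.14 in swi1. PRM6, a potassium transporter, could be tested in snf2 minimal alone and stood at -2.12 ± 0.15 (adjusted p = 0.00192). PRM7 had means of opposite sign in the 2 media on replicates 2 and 3, at 0.59 ± 0.08 and 0.29 ± 0.08 in minimal and -1.31 ± 0.09 and -1.12 ± 0.09 in rich medium, and its difference between media was called in both mutants, at 1.90 ± 0.13 (adjusted p = 0.000159) and 1.41 ± 0.12 (adjusted p = 0.000925). Replicate 1 was below 0 in minimal medium too, at -0.15 and -0.54, and at -1.43 and -1.26 in rich medium. PRM5 was called higher in rich medium, by 1.04 ± 0.11 and 1.23 ± 0.11, while in minimal medium it stood at 0.09 and 0.26 and did not pass. On replicate 1 in rich medium it read 0.89 in snf2 and 0.00 in swi1.

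Of 5 other genes that dampen the response, limma called 2 lower and 1 higher of 4 in snf2 minimal, in swi1 minimal and in swi1 rich, and 2 lower and 0 higher of 2 in snf2 rich. AFB1, the alpha-cell barrier protein for a-factor, was lower in all 4 groups, from -1.06 ± 0.09 in snf2 rich to -1.65 ± 0.09 in snf2 minimal. BAR1, the protease that degrades alpha-factor, read 0.20 ± 0.12 in snf2 minimal, where it did not pass, and was called higher in swi1 minimal at 0.72 ± 0.12. PTP2, a tyrosine phosphatase that acts on mitogen-activated protein kinases, was called higher in both groups where it was tested, at 0.64 ± 0.13 in snf2 minimal and 0.54 ± 0.13 in swi1 rich, where replicate 1 read 0.06 and -0.07. MSG5, a phosphatase of Fus3, was called lower in swi1 rich, at -0.52 ± 0.15 (adjusted p = 0.0473), where replicate 1 read 0.01. PTP3, another such tyrosine phosphatase, was called lower at -0.44 ± 0.11 in snf2 minimal, -0.45 ± 0.11 in swi1 minimal and -0.46 ± 0.11 in snf2 rich, but read 1.64 on replicate 1 of snf2 rich and 0.32 on that of swi1 minimal.

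Of the markers of mating type, the alpha-specific genes moved with the members and the a-specific genes did not as a set. The part of these markers in the result was not tested. All 5 alpha-specific genes (STE3 and AFB1 among them) were called lower in every group where they were tested, with medians of -2.79, -2.39, -1.36 and -1.71 in the order used above, and group means from -4.76 (SAG1, the alpha-agglutinin, in snf2 minimal) to -0.53 (MF(ALPHA)1, an alpha-factor gene, in snf2 rich). Of the 7 a-specific genes, 1 of 6 was called lower and 0 higher in snf2 minimal. For swi1 minimal it was 1 and 1 of 6, for snf2 rich 0 and 1 of 2 and for swi1 rich 1 and 1 of 6. Their medians were 0.02, -0.01, 0.23 and -0.06. STE2, the alpha-factor receptor of a cells, stood at -0.47 ± 0.09 and -0.49 ± 0.09 in minimal medium and did not pass in rich medium, and replicate 1 in swi1 minimal read 1.62. STE6, the a-factor exporter, was called higher in rich medium, by 0.29 ± 0.09 and 0.43 ± 0.08. MFA2, an a-factor gene, was called lower in swi1 rich at -1.41 ± 0.43, from -2.41 and -0.41 on its arrays. Ratios do not give levels, so whether a marker was present at all cannot be read from them.

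Of 7 other genes that are off in a/alpha diploids, limma called 2 lower and 0 higher of 7 in snf2 minimal. For swi1 minimal this was 2 and 1 of 6, for snf2 rich 1 and 1 of 4 and for swi1 rich 2 and 1 of 7. RME1, a repressor of meiosis, was lower in all 4 groups, from -0.50 ± 0.12 in snf2 rich to -1.22 ± 0.12 in swi1 minimal. HO, the mating-type switching endonuclease, was called higher in snf2 rich at 0.75 ± 0.11, but replicate 1 there read -0.54. AXL1, a protease of a-factor processing and axial budding, was called higher in swi1 rich at 0.45 ± 0.14. NEJ1, a factor of end joining, was called in no group. None of the 4 meiosis genes IME1, IME2, SPO11 and SPO13 was called in any group by limma, with group means between -0.21 and 0.40.

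**Figure D5:**
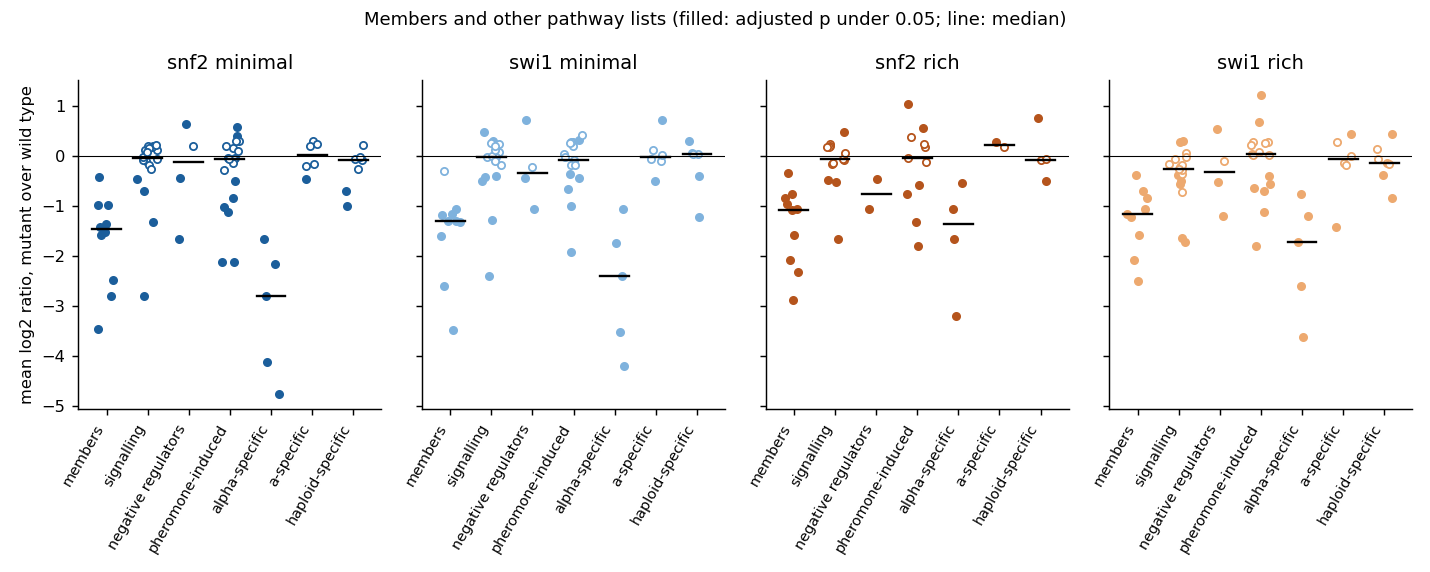
Mean log2 ratio (y axis, mutant over wild type, likely direction) of each tested gene in the members and in 6 other lists (x axis), in a panel per group; filled points passed an adjusted p of 0.05 and the line is the median of the list. The members and the alpha-specific genes lie below 0 throughout, while the medians of signalling, pheromone-induced, a-specific and haploid-specific genes lie between -0.25 and 0.23.

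Genes with profiles most like those of the members were taken as the smallest root-mean-square difference of log2 ratios over the 8 arrays, among genes measured on all 8 (3206 for a single member). Nearest to FAR1 were AFB1 (0.079) and KAR4 (0.12), and nearest to KAR4 were FAR1 and PFK27 (0.14), a gene of fructose 2,6-bisphosphate synthesis. On replicate 1 in rich medium AFB1 and FAR1 parted, at -1.31 and -0.16 in snf2 and -0.92 and 0.02 in swi1. In minimal medium they read -1.76 and -1.51 in snf2 and -1.245 and -1.53 in swi1. Nearest to FUS3 was PST1 (0.16), a cell wall protein gene, followed by YIL082W-A (0.20) and HMLALPHA1 (0.22). For SST2 they were CSS1 (0.17), YER138C (0.17) and YMR051C (0.22). AGA1 had no close match, with MRH1, a plasma membrane protein gene, at 0.48 and SED1, a cell wall protein gene, at 0.54. Nearest to GPA1 were the enolase genes ENO1 (0.17) and ENO2 (0.20), with YAR010C between them, and nearest to STE12 was ATP1 (0.11), of the mitochondrial ATP synthase. FUS1 was nearest to YBR238C (0.22) and FIG2 to BUD9 (0.19), a gene of bud site choice. The mean profile of the 9 members measured on all 8 arrays, set against 3197 other genes, was nearest to HMS2 (0.13), YIL082W-A (0.14), ATO3 (0.16), MATALPHA1 (0.18) and PFK27 (0.19). These distances describe arrays that share a platform and possibly the wild-type RNA.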

How the data were processed

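The deposited tables hold 1 log2 ratio per probe and array; the spots were read with ScanAlyze, per the labels, and further steps by the authors are not given in the sources used here. Base 2 was read from the table of 8 arrays, where 9.90% to 13.2% of values matched, at 3 decimals, a base 2 log of quotients of small integers (at most 20), and 6.40% to 6.84% matched the same grid when shifted. For natural logs these shares were 8.77% to 10.0% and 8.33% to 9.23%. Base 10 matched more values, 14.1% to 17.8%, but the shifted grid then matched 13.2% to 15.5%. The gap to the shifted grid was widest for base 2, which was taken over for replicate 1. Scale and centring by the authors remain unknown. Column medians were between -0.13 and -0.03 on the 8 arrays, and -0.08, -0.13, -0.48 and -0.07 on replicate 1 of snf2 minimal, swi1 minimal, snf2 rich and swi1 rich. Signal over background is unknown, and precision is limited by how few arrays there are.

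Signs were turned to mutant over wild type. Of 8832 probes 6956 had 1 gene (5574 genes), 0 had several and the rest none; in the tables of replicate 1, 5516 of 6384 (minimal) and 5548 of 6400 (rich) had 1. All named probes matched the RefSeq annotation (R64). Spots of a gene were averaged and arrays centred on their median gene, which moved values by over 0.1 on 3 of the 8 arrays (0.11, 0.11 and 0.10, all in rich medium). No member overlapped another annotated gene.

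limma 3.58.1 (R 4.3.3) was fitted with 1 mean per group to replicates 2 and 3, for 8 comparisons, on genes with a value on both tested arrays in the groups compared. Two-sided p-values were Benjamini-Hochberg adjusted over all genes tested, at 0.05. The fit was tested on simulated data. Replicate numbers were not taken to pair arrays: deviations of same-numbered arrays correlated at -0.03 to 0.02 across genes. The members, lists and rules were chosen with earlier results of these data known. All members are named; of each other list the up to 4 called genes with the largest values are named first, and further genes were chosen after their values were seen. No sequences were printed, as none were among the files used.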

Additional observations from a re-analysis of the deposited data

Results flagged for a closer look

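The effect on SST2 differed between media on snf2 arrays, by -0.72 (minimal minus rich, means -2.79 and -2.07), in limma's test of the difference. The effect on AGA1 differed between media on swi1 arrays, by -0.97 (means -3.47 and -2.50). Groups had 2 arrays in the tests and 3 in all, too few to look for single outlying samples.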

How the results depend on the processing

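No called value changed sign. The effects of AGA1, SST2 and FUS3 passed in every alternative run, and those of GPA1, FAR1 and KAR4 in all but the fit of 12 arrays; of 703 member values for effects, 44 lost the call. With 12 arrays and platform as a random block, the genes called were 359 (snf2 minimal), 350 (swi1 minimal), 575 (snf2 rich) and 428 (swi1 rich), against 1550, 1526, 1543 and 2051; the members called were 5 and 3 in rich medium. On genes measured on all 8 arrays 1033 were called in snf2 minimal. The FIG2 call in swi1 rich was also lost with a common spread, with quantile normalisation and with the compared arrays alone (adjusted p = 0.0672, 0.0594 and 0.0611), as was that of STE12 in snf2 rich (0.0606, 0.0651 and 0.0679), and that of FIG1 in swi1 minimal with a trended, robust variance (0.0626). The cause was not tested.

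Between mutants in rich medium 1 gene was called, 2 without centring or on genes measured on all 8 arrays, and 0 with the compared arrays alone or 12 arrays. Between media, 178 genes (snf2) and 306 (swi1) became 98 and 179 with the compared arrays alone and 91 and 95 with 12 arrays. Members called, 1 in each, were 5 and 4 with a common spread, and 0 and 0 with quantile normalisation or the compared arrays alone. They were 0 and 2 with 12 arrays, and 2 in swi1 without centring. Of all genes, 192 of 3559 tested (snf2) and 293 of 4890 (swi1) were called with a common spread. With quantile normalisation 145 and 256 were, and without centring 308 in swi1.

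Leaving out 1 array gave 685 to 1551 genes and 8 to 10 members in snf2 minimal, 586 to 1526 and 8 to 9 in swi1 minimal, 1029 to 1505 and 8 to 10 in snf2 rich, and 1054 to 2077 and 8 to 9 in swi1 rich. Between mutants it gave 0 to 18 genes in minimal and 0 to 66 in rich medium, with 0 members. Between media it gave 77 to 229 genes in snf2 and 113 to 311 in swi1, with 0 to 1 member. A lone array was assumed to vary like the other groups. With the replicate block 1385, 1326, 1438 and 1865 genes were called for the 4 effects, and the call of FIG2 in swi1 rich was the 1 member call that it changed.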

Other observations

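The alpha-specific genes also differed between media. In snf2 all 4 tested were called lower in minimal than in rich medium by limma, against 5% of all genes. By limma SAG1 differed by -1.56 ± 0.17 (adjusted p = 0.00187) and MF(ALPHA)1 by -1.63 ± 0.24 (adjusted p = 0.00765). The tested snf2 rich arrays of MF(ALPHA)1 read -0.48 and -0.58. Its replicate 1 arrays lay much closer together, at -1.94 in snf2 minimal and -1.61 in snf2 rich. For SAG1 the replicate 1 arrays read -4.93 and -3.50. In swi1 2 of 5 were called lower in minimal medium, against 205 of 4890 genes called lower, STE3 among them at -0.68 ± 0.14 (adjusted p = 0.0397).

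Genes at the mating-type loci, chosen after their values were seen, read as follows. MATALPHA1, the activator of alpha-specific genes, stood at -1.69 in snf2 minimal, -1.58 in swi1 minimal, -1.48 in snf2 rich and -1.18 in swi1 rich, and passed in each. HMLALPHA1, a silent copy whose probe may share its sequence, stood at -1.80, -1.58, -1.66 and -1.36, so the loci cannot be told apart here. MATALPHA2, a repressor of a-specific genes, was called in swi1 minimal alone, at -1.11 (adjusted p = 0.0361), and read -0.43, -0.80 and -0.71 in snf2 minimal, snf2 rich and swi1 rich. Its standard error was 0.31 in each group, and the 2 snf2 minimal arrays read 0.38 and -1.24. Replicate 1 read -1.37, -1.26, 2.02 and -1.05 in the order snf2 minimal, swi1 minimal, snf2 rich and swi1 rich. The silent copy HMLALPHA2, whose probe may likewise share the sequence of MATALPHA2, passed in all 4 groups, from -0.51 to -1.04. So did HMRA2, from -0.50 to -0.88, but its probe may also share sequence with the other mating-type loci, so it cannot be read as a separate result. HMRA1 was called in no group, at -0.22, -0.04, -0.15 and 0.09. On replicate 1 it read 3.335 in snf2 minimal, 0.88 in snf2 rich and 0.12 in swi1 rich.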
